A study of Mus musculus with 12 samples.

Results

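The genes described here are 9 members of the vascular endothelial growth factor (VEGF) family in mouse lymph node: the ligands Vegfa, Vegfb, Vegfc and Pgf, the receptors Kdr, Flt1 and Flt4, and the co-receptors Nrp1 and Nrp2. They were chosen by symbol and are 9 of the 32285 genes of the deposited feature lists. Each of the 12 libraries lists all 9, so every member could be counted in every library.

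Mice were C57BL/6, 7 to 10 weeks old, with both copies of Atg12 floxed (ATG12 fl/fl), and were given tamoxifen 5 times. They either carried or lacked CreER, a tamoxifen-dependent Cre recombinase driven by the promoter of Cdh5, an endothelial gene. Floxed Atg12 and tamoxifen were thus shared by all groups. Mice received 50 µl of 4% oxazolone in acetone and olive oil, a contact sensitiser that inflames the skin, on the abdomen, and lymph nodes were collected on day 3 or on day 7. Vehicle mice received the solvent without oxazolone. Cells were split on CD45 magnetic beads, and both the unbound fraction (the CD31 libraries, labelled endothelial cells) and the bound fraction (the CD45 libraries, labelled immune cells) were sorted by flow cytometry. There was 1 library for each combination of Cre label, treatment and fraction. The number of mice pooled in a library is not given in the sources used here, so p-values measure only the spread between libraries, and n is a number of libraries throughout.

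VEGF ligands are secreted proteins that act on receptor tyrosine kinases of endothelial cells. Vegfa is the main driver of blood vessel growth and permeability and signals through Kdr (VEGFR2); Flt1 (VEGFR1) binds Vegfa tightly with weak kinase activity and so acts partly as a trap, and it is the receptor for Vegfb and Pgf. Vegfc acts through Flt4 (VEGFR3) and is needed for lymphatic vessels to form. Nrp1 and Nrp2 are co-receptors for VEGF ligands and for semaphorins, guidance proteins. In a lymph node, fibroblastic reticular cells form the scaffold of the tissue and are a known source of Vegfa, and lymphocytes enter through high endothelial venules (HEVs), post-capillary vessels with tall endothelial cells.

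Libraries held 36724887 to 76187731 unique molecular identifiers (UMIs, each a tag that marks 1 captured molecule) in all barcodes. After filtering, 89054 cells remained, 5698 to 10553 per library, with a median of 3434 to 6173.5 UMIs per cell, and no pair of libraries shared more than 0.38% of the barcodes of the smaller one. Atg12 did not fall with the Cre label in blood endothelial-like cells: it stood at 45.7 to 52.7 CPM (normalised counts, explained below) in the 3 libraries labelled Cre-negative and at 60.1 to 73.8 in the 3 labelled Cre-positive. Counts of 3′ ends need not register the deletion, so this is no check of the labels, which are used below as labels only. A reporter gene, mRFP, was listed for 4 CD31 libraries, with 342 to 930 UMIs in the 3 labelled Cre-positive and 0 in the day 7 library labelled Cre-negative. Libraries also differed in sex-linked RNA. The share of HEV-like cells with Y-linked and no Xist UMIs ran from 27% to 83.7% over the libraries, and the vehicle library labelled Cre-positive had the highest share in HEV-like, capillary-like, lymphatic-like and reticular fibroblast-like cells.

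All coordinates are from build GRCm38 with the GENCODE M21 annotation. Among the receptors, Kdr spans chr5:75932827-75978458 and Flt1 chr5:147561604-147726011, both on the minus strand, while Flt4 lies at chr11:49609263-49652739, Nrp1 at chr8:128358604-128503363 and Nrp2 at chr1:62703285-62818695, all 3 on the plus strand. Of the ligands, Vegfa lies at chr17:46016993-46032369, Vegfb at chr19:6982473-6987651 and Pgf at chr12:85166635-85177790, all on the minus strand, and Vegfc at chr8:54077606-54187096 on the plus strand. Promoter sequences were found in the RefSeq table (GRCm38.p6) for all 9. The stretches just upstream of the transcription start are shown for the 3 receptors with the most UMIs in blood vessel cells, Flt1, Kdr and Nrp1, because these genes were high together there. They are written in the direction of transcription, and capitals mark the core GGAAG, or its reverse complement CTTCC, of the motif bound by ETS factors, a family with many endothelial members.
Kdr: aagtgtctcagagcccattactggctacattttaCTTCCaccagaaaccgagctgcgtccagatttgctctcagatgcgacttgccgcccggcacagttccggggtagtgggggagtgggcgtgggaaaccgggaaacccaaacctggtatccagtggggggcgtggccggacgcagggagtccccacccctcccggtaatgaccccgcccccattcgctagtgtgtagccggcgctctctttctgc
Flt1: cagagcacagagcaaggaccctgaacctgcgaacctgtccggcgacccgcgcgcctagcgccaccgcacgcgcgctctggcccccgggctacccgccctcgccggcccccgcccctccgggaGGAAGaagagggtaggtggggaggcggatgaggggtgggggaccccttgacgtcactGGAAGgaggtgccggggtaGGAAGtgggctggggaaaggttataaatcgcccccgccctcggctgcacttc
Nrp1: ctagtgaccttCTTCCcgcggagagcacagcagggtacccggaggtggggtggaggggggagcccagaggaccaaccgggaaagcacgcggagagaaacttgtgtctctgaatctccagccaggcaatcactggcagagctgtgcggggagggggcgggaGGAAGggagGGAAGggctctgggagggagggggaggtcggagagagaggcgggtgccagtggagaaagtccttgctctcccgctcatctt
The Kdr stretch (chr5:75978459-75978705, minus strand) is 247 bases long and holds 1 match. The Flt1 stretch (chr5:147726012-147726261, minus strand) and the Nrp1 stretch (chr8:128358823-128359072, plus strand) are 250 bases long and hold 3 matches each, and the latter lies in the first intron of 1 annotated transcript that starts further upstream. Across 32851 promoter windows of 250 bases, 64.1% held at least 1 match on either strand, with a median of 1, so a match of this kind is common. The letters ACGTG, or their reverse complement CACGT, are a form of the core bound by hypoxia-inducible factors. They were in none of the 3 stretches and in 16.6% of all windows. Other forms of this core, such as GCGTG, and other forms of the ETS core were not counted.

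Levels below are in CPM: the UMIs of a gene per 1000000 UMIs of all genes in the cells of that class and library. Classes are clusters named after marker genes ("-like") or after a leading gene, and the 9 members were left out of the genes used for clustering. Because 3′ UMIs count molecules and not fragments, CPM does not grow with transcript length, but capture can differ between genes, so comparisons run mainly between classes for 1 gene. CPM is a share of RNA, and in summed cells a change in level cannot be told apart from a change in the mix of cells in a class.

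Flt1, Kdr and Nrp1 lay mostly in blood vessel cells, and Vegfa mostly in reticular cells of the CD45 libraries. Lymphatic cells held, by the median, most of the far fewer Vegfa UMIs of the CD31 libraries. In the CD31 libraries, blood endothelial-like cells held a median of 98.5% of the Flt1 UMIs, 95.5% of the Nrp1 UMIs and 82.9% of the Kdr UMIs found in cells. Lymphatic-like cells held 64.7% of the Flt4 UMIs and 55.9% of the Vegfa UMIs there. Ligands were also found in the blood endothelial-like cells, with 90% of the Vegfc, 47.8% of the Pgf and 38.6% of the Vegfb UMIs, as were 72.6% of the Nrp2 UMIs. In the CD45 libraries, reticular fibroblast-like cells, which had stayed with the bead-bound cells, held 86.4% of the Vegfa UMIs, 90.3% of the Vegfc UMIs and 90.2% of the Pgf UMIs, and also 67.2% of the Nrp1 and 61.4% of the Nrp2 UMIs. Vegfa totalled 17302 UMIs in the cells of the CD45 libraries against 2227 in those of the CD31 libraries, and Flt1 totalled 208717 in the CD31 libraries against 1008 in the CD45 libraries. Most of these few Flt1 and Kdr UMIs of the CD45 libraries (75.1% and 63.0%) lay in clusters that could not be named, among them 1 of 187 cells led by both endothelial and keratin genes. The bead split and the sort affect how many cells of each class a library holds. These shares and totals thus describe the libraries and not the whole node.

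**Figure D1:**
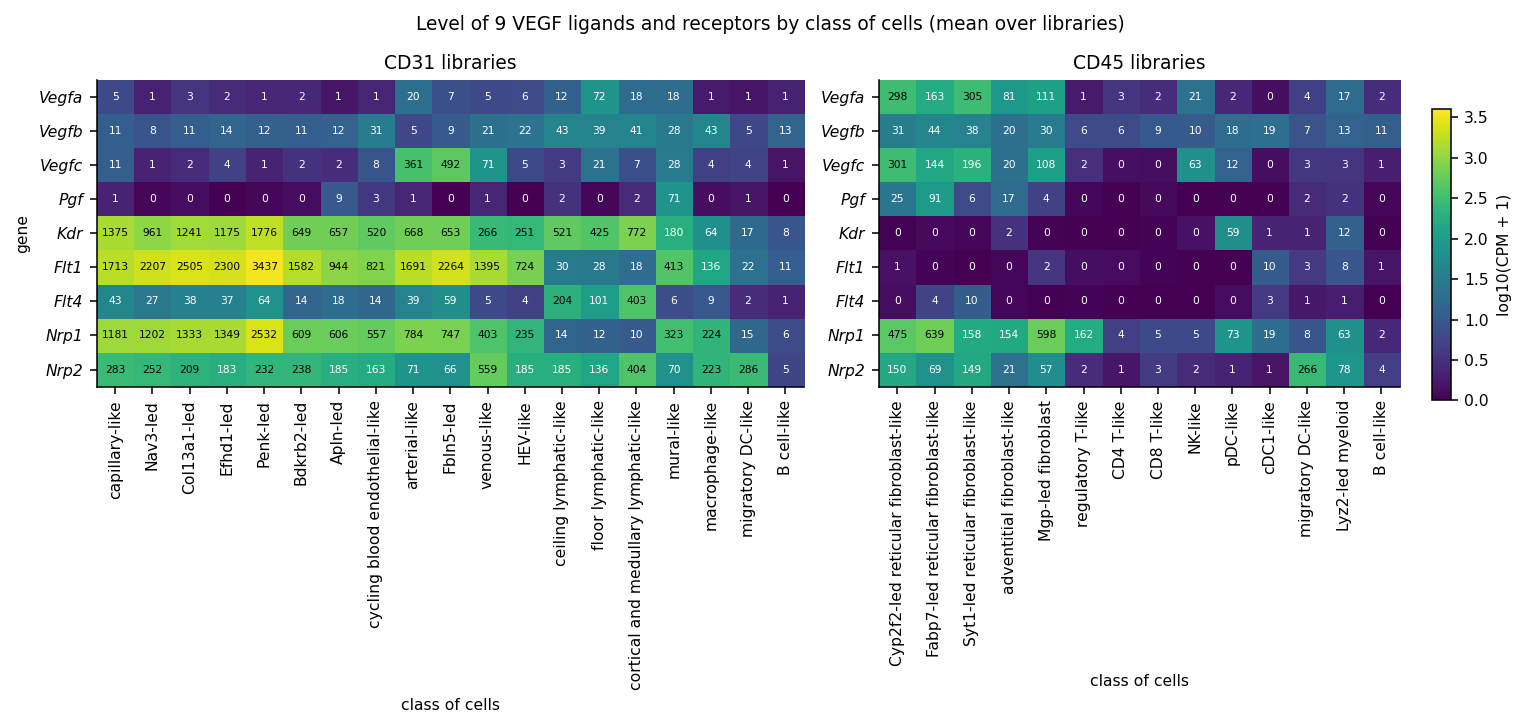
Mean CPM over libraries of each of the 9 genes (rows) in classes of the CD31 libraries (left) and the CD45 libraries (right); colour is log10(CPM + 1) and the number in each cell is the mean CPM. Flt1 reaches 3437 in Penk-led endothelial cells and 0.521 in the Cyp2f2-led reticular cluster, where Vegfa reaches 298.

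Vegfa was highest in reticular fibroblast-like cells. In the Cyp2f2-led cluster of these cells, the largest, Vegfa stood at 298 ± 79.0 CPM (SD, n = 6), from 237 to 439, and in the Syt1-led cluster at 305 ± 79.6. The ranges of these 2 clusters overlapped. The Fabp7-led cluster, at 163 ± 32.9, lay below the Cyp2f2-led cluster with no overlap. Of the single cells, a median of 73.2% of Cyp2f2-led cells had a Vegfa UMI, against 0.738% of B cell-like cells, given for comparison. After thinning every cell to 1000 UMIs the shares were 21.8% and 0.188%. Fibroblasts outside the reticular class held less: the Mgp-led cluster stood at 111 ± 44.7 CPM and adventitial fibroblast-like cells, which surround larger vessels, at 80.8 ± 22, still above every immune class in the mean.

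Within the vessel cells, Vegfa was highest in the floor of the lymphatic sinus, the layer that faces the node. Floor lymphatic-like cells stood at 72.5 ± 9.13 CPM (n = 6), from 63.6 to 87.3, and all 6 libraries lay above the ceiling lymphatic-like cells of the outer wall, at 12.1 ± 2.90 with a highest value of 17.6. Blood vessel cells held little Vegfa: 19.7 ± 5.08 in arterial-like cells and 5.88 ± 3.11 in HEV-like cells. The floor cells also carried Kdr, the receptor of Vegfa, at a mean of 425 CPM.

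Vegfb was spread over many classes of both fractions. Its highest means in the CD31 libraries were 42.7 ± 7.28 CPM in macrophage-like cells and 42.6 ± 3.24 in ceiling lymphatic-like cells, which did not differ beyond their spread, and in the CD45 libraries 44.1 ± 6.45 in the Fabp7-led reticular cluster. The lowest vessel class was arterial-like cells, at 2.54 to 6.40 CPM. The ranges of neighbouring classes overlapped all along the order, so no source of Vegfb stood out.

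Vegfc, the lymphatic growth factor, was counted in vessel cells and in fibroblasts. Among vessel cells it was highest in arterial-like cells, at 361 ± 76.3 CPM (n = 6; 267.8 to 495.8), and in a cluster led by Fbln5, an elastic fibre gene, at 492 ± 74.6 (392.9 to 573.1), which shares leading genes such as Nebl with them. These ranges overlapped each other and no other class of the CD31 libraries reached them: the few reticular fibroblast-like cells there stood at 74.8 ± 37.0 and venous-like cells at 71.4 ± 36.2, and capillary-like cells held 8.63 to 13.1. A median of 49.0% of arterial-like cells had a Vegfc UMI, and 25.4% after thinning, while the B cell-like class of the CD31 libraries had medians of 0.170% and 0%. Arterial-like cells had a median depth of 3013.5 to 5065 UMIs over libraries and B cell-like cells one of 2930.5 to 3652.5. The reticular class held 301 ± 47.7 CPM in the Cyp2f2-led, 196 ± 39.2 in the Syt1-led and 144 ± 61.8 in the Fabp7-led cluster. Mgp-led fibroblasts stood at 108 ± 24.9 CPM (61.5 to 132.4), which overlapped the Fabp7-led cluster (72.2 to 240.1), and their share of the Vegfc UMIs in CD45 cells ran from 3.44% to 23.6% over libraries, with a median of 6.37%. NK-like cells also held Vegfc, at 63.4 ± 28.5 CPM, from 28.7 to 110.7.

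Pgf (placental growth factor, a ligand of Flt1) was rare, and its highest levels were in mural-like and reticular cells. Mural-like cells, the pericytes and smooth muscle cells of the vessel wall, held 70.9 ± 26.9 CPM (n = 6; 50.5 to 117.9), although a library had only 18 to 47 such cells. The Fabp7-led reticular cluster held 90.5 ± 30.3, and each of its 6 libraries lay above all 6 of the Cyp2f2-led cluster, at 25.1 ± 9.12. Among blood vessel cells, only the Apln-led cluster, named for a gene of sprouting endothelium, rose above 5 CPM in the mean, at 8.98 ± 3.70. HEV-like cells had 0 Pgf UMIs in all 6 libraries, where a count of 3 would have given 0.410 to 1.09 CPM.

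**Figure D2:**
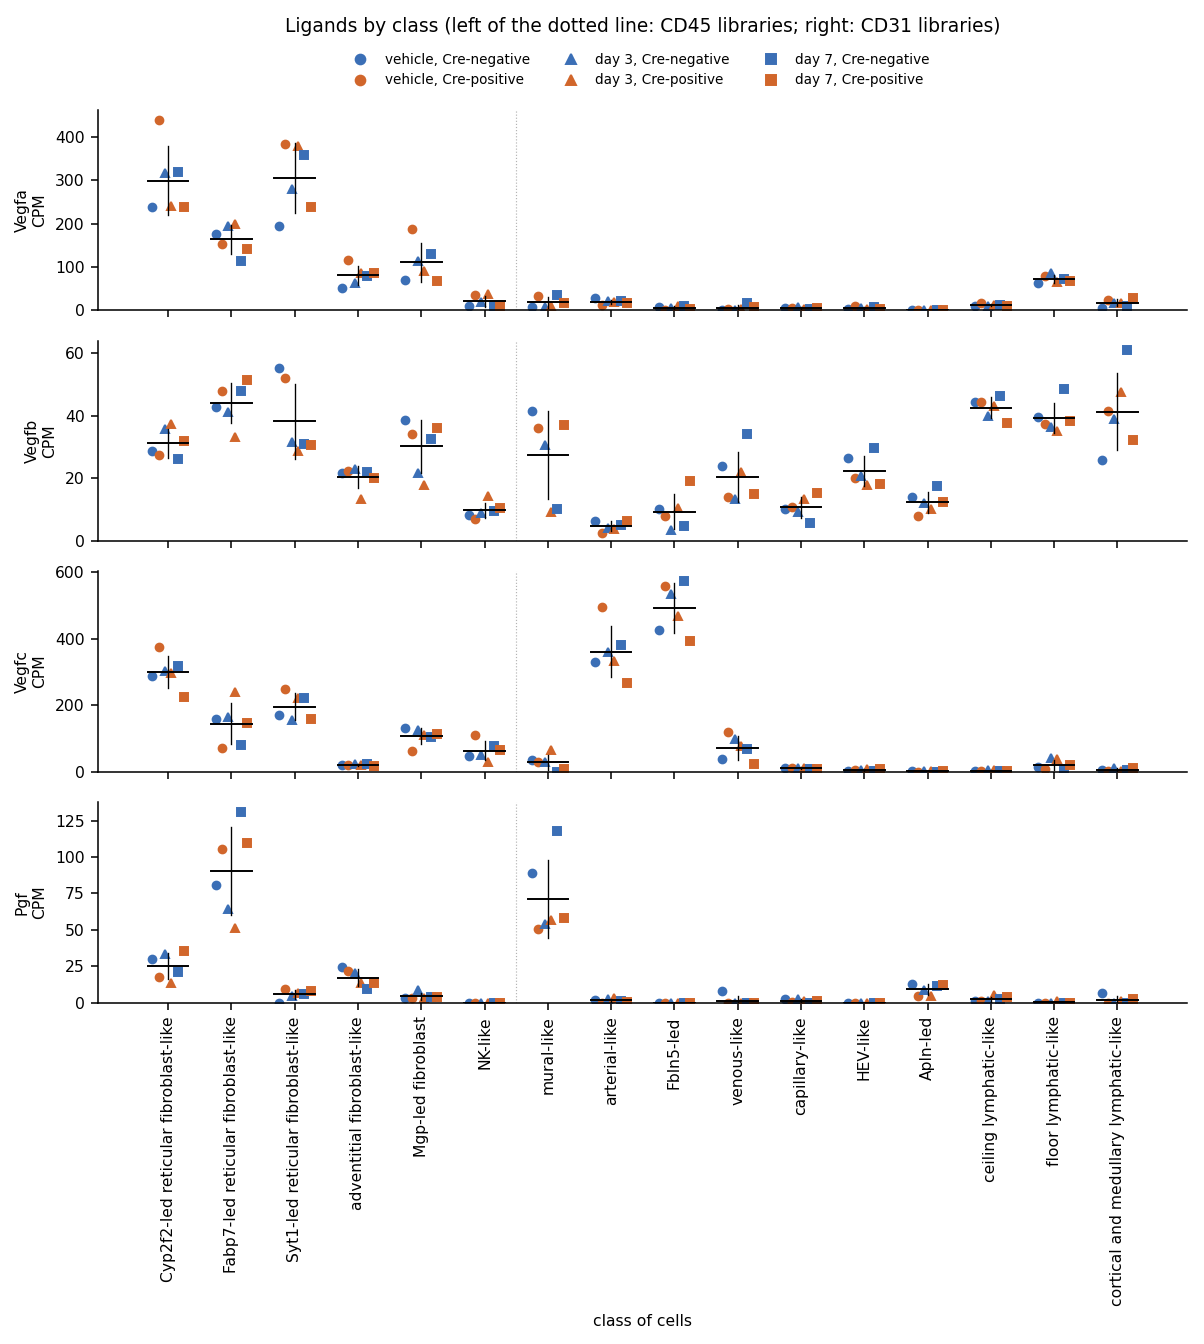
CPM of Vegfa, Vegfb, Vegfc and Pgf by class; each point is 1 library (shape: treatment, colour: Cre label), the bar is the mean and the vertical line the SD over libraries. Vegfc stands at 267.8 to 495.8 in arterial-like cells and at or below 120.4 in venous-like, HEV-like and lymphatic-like cells.

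Among the receptors, Kdr and Flt1 were carried by all blood vessel classes at different levels. A cluster led by Penk, a neuropeptide precursor gene, was highest for both, with Kdr at 1776 ± 283 CPM (n = 6; 1484 to 2239) and Flt1 at 3437 ± 533 (2896 to 4276). For Flt1 the 6 Penk-led values lay above all those of the next class, the Col13a1-led cluster at 2505 ± 272. For Kdr they overlapped the next class, capillary-like cells, at 1375 ± 146. Kdr was lowest, among blood vessel cells, in HEV-like (251) and venous-like (266) cells, and Flt1 in HEV-like cells at 724 CPM. Kdr, but hardly Flt1, was also carried by lymphatic vessels, with 772 ± 74.6 CPM of Kdr in cortical and medullary lymphatic-like cells.

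Shares of cells with a UMI depended on depth. Of capillary-like cells, with a median of 1875.5 to 2838 UMIs, 90% had a Kdr UMI, and of HEV-like cells, with 9096 to 11293 UMIs, 80.6% had one. Thinned to 1000 UMIs per cell the shares were 70.1% and 23.5%, against 0.646% of B cell-like cells. For Flt1 the shares were 92.9% of capillary-like and 95.3% of HEV-like cells, and 77.3% and 51.3% after thinning, so the order turned. Droplets of at most 100 UMIs, which hold free RNA, had Flt1 at 345 to 474 and Kdr at 244 to 403 CPM in the CD31 libraries, and B cell-like cells there stood at 6.76 to 16.2 CPM of Flt1. The part of free RNA in such low levels was not tested.

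Flt4, the Vegfc receptor, was graded along the lymphatic vessels. Cortical and medullary lymphatic-like cells held 403 ± 60.0 CPM (n = 6; 317.1 to 496.1), ceiling lymphatic-like cells 204 ± 38.1 (164.7 to 272.7) and floor lymphatic-like cells 101 ± 27 (72.5 to 138.4). The 3 ranges did not overlap. Blood vessel cells were not free of Flt4: Penk-led cells stood at 64.2 ± 9.26 CPM and capillary-like cells at 43.4 ± 4.60, while HEV-like cells stood at 1.09 to 5.58 and B cell-like cells at 0.559 to 1.71. After thinning, 34.5% of cortical and medullary, 19.1% of ceiling and 8.78% of floor lymphatic-like cells had a Flt4 UMI, against 4.20% of capillary-like and 0.599% of HEV-like cells.

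Of the co-receptors, Nrp1 was high in blood vessels and low in lymphatic vessels, while Nrp2 was carried by both. Nrp1 was highest in Penk-led cells at 2532 ± 370 CPM (n = 6), with no overlap with the next class, and stood at 784 ± 60.9 in arterial-like cells. Lymphatic-like cells held only 6.42 to 17.9 CPM of Nrp1. Nrp2 was highest in venous-like cells at 559 ± 101 (432 to 711.9), above all 6 values of the next class, cortical and medullary lymphatic-like cells at 404 ± 22.3, and lowest among vessels in Fbln5-led (56.4 to 80.0) and arterial-like cells (54.2 to 79.9).

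Outside the vessels, both neuropilins were carried by fibroblasts and by particular immune cells. Nrp1 stood at 639 ± 214 CPM in the Fabp7-led reticular cluster and at 598 ± 121 in Mgp-led fibroblasts, which did not differ beyond their spread. Regulatory T-like cells, in which Nrp1 is a known surface marker, held 162 ± 42.3 CPM (105.4 to 231.5) against 1.6 to 5.05 in CD4 T-like cells of the same libraries, and 41.0% of them had an Nrp1 UMI against 1.45%. Nrp2 stood at 266 ± 96.9 CPM in migratory dendritic cell-like cells. Plasmacytoid dendritic cell-like (pDC-like) cells held Kdr at 59.4 ± 16.7 CPM (n = 6; 38.7 to 80.7), above all values of the next class, Lyz2-led myeloid cells at 11.5 ± 6.38. In these pDC-like cells 3 of 8 pan-endothelial marker genes had a UMI in each library, at a summed 148 to 263 CPM, and a median of 24.2% had a Kdr UMI against 0% of B cell-like cells.

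**Figure D3:**
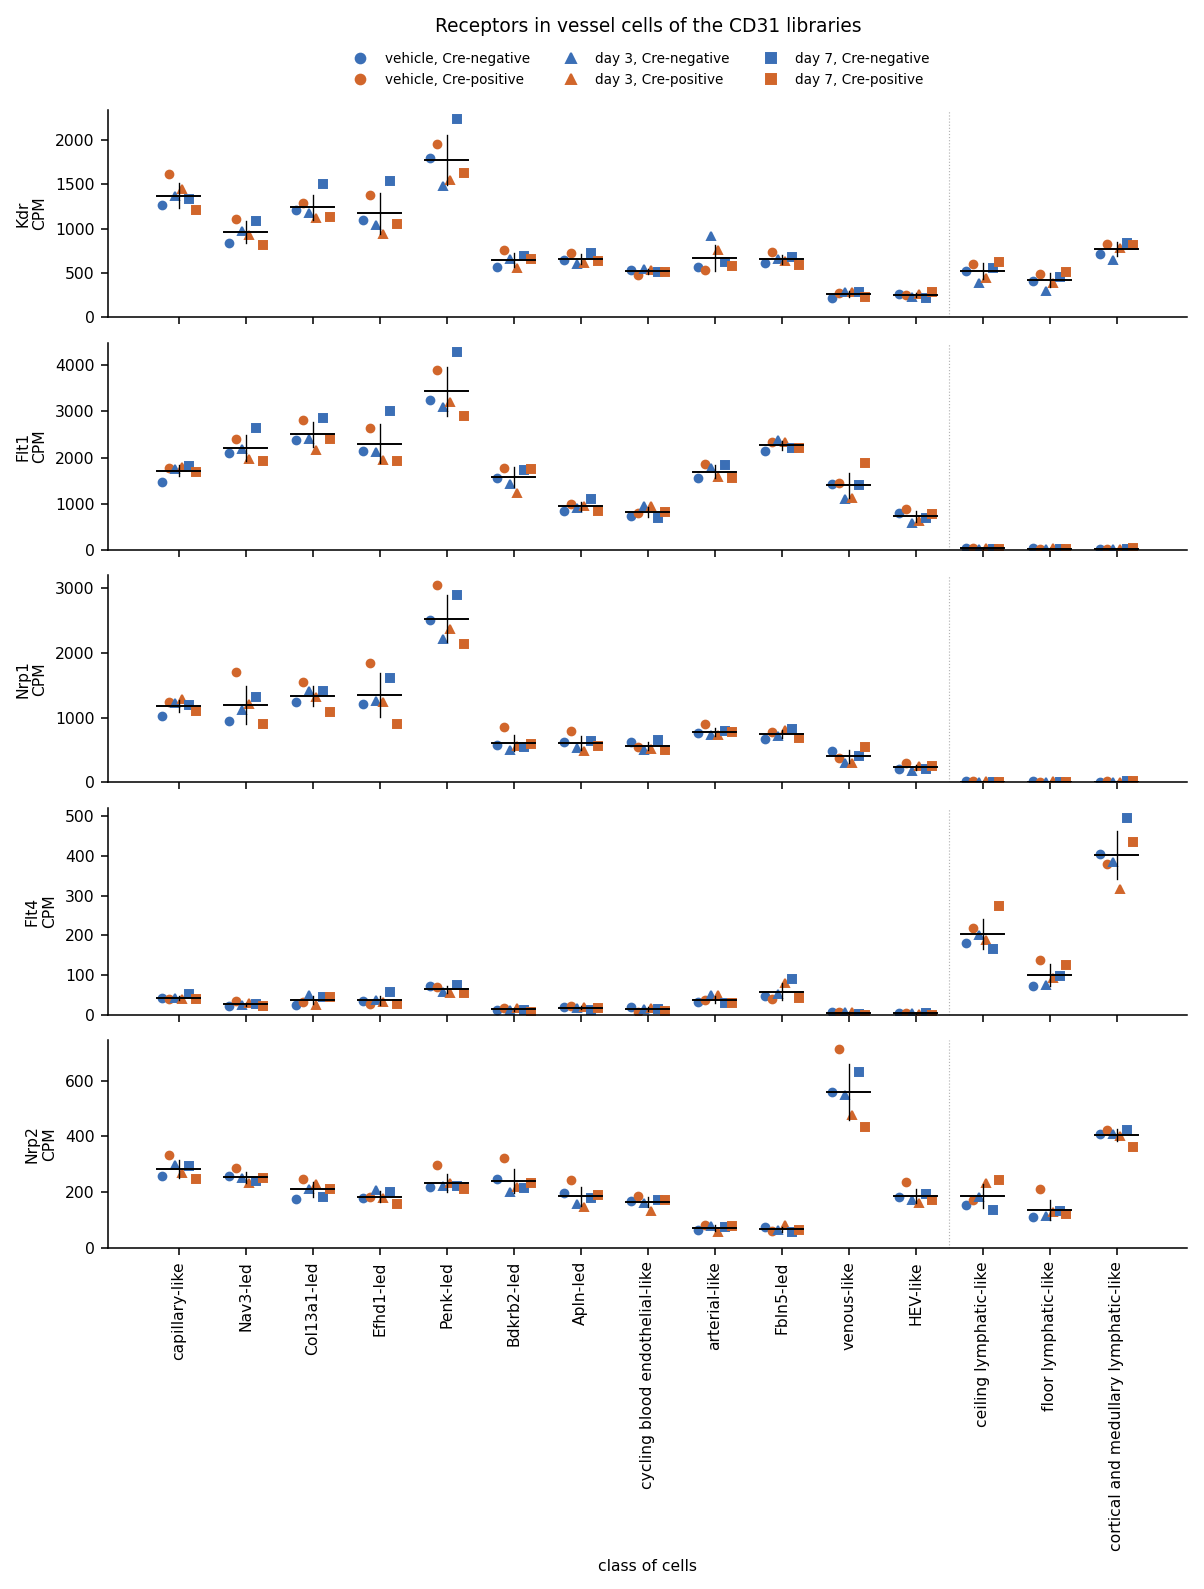
CPM of Kdr, Flt1, Nrp1, Flt4 and Nrp2 in vessel classes of the CD31 libraries, blood vessels left and lymphatic vessels right of the dotted line; each point is 1 library, the bar the mean and the vertical line the SD. Flt4 is highest in cortical and medullary lymphatic-like cells (317.1 to 496.1) and Nrp2 in venous-like cells (432 to 711.9).

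Class pairs were then tested over the 6 CD31 libraries, with the library as a block, by edgeR's quasi-likelihood test with Benjamini-Hochberg adjustment over all genes. The clusters were taken as given, and the 3 pairs that use capillary-like cells share them. The capillary-like class holds only the clusters rich in capillary marker genes, with leading genes such as Tcf15, Fabp4, Lpl, Aqp7, Tmem182, Pparg and Cd36. Other blood endothelial-like clusters, such as the Nav3-, Col13a1-, Efhd1-, Penk-, Bdkrb2- and Apln-led ones, are not in it. These were not set against HEV-like, arterial-like or venous-like cells in the fits. Whether the capillary-like cells came from the node itself or from tissue around it was not tested. Many genes differ between cell types: in lymphatic-like against blood endothelial-like cells 59.8% of 15474 genes passed an adjusted p of 0.05, 28.9% higher and 30.9% lower in lymphatic-like cells. Of the 9 members 7 passed, 3 higher and 4 lower, so the sizes say more than the count. Nrp1 was lower in lymphatic-like cells by a log2 difference of -6.33 (SE 0.19, edgeR adjusted p = 1.9e-10) and Flt1 by -6.09 (SE 0.21, 5.5e-10). Without doublet removal these were -4.49 and -4.51, and with free RNA subtracted -7.50 and -7.04. Vegfa was higher by 2.71 (SE 0.11), Flt4 by 2.74 (SE 0.11) and Vegfb by 1.41 (SE 0.08). Vegfc was lower by a log2 difference of -2.38 and Kdr by -0.81, while Nrp2 (-0.19, edgeR adjusted p = 0.164) and Pgf (-0.28, adjusted p = 0.542) did not pass. The Vegfc and Kdr differences are from the pooled blood endothelial-like class, not from each of its clusters. Mean Vegfc was higher in floor lymphatic-like than in capillary-like cells, with overlapping ranges. Mean Kdr was higher in cortical and medullary lymphatic-like cells than in HEV-like or venous-like cells. Without the day 3 library labelled Cre-positive, Nrp2 passed at -0.28 (edgeR adjusted p = 0.0274). The lymphatic-like cells still held 1647 to 2519 CPM of 6 capillary marker genes, whose part in the low Flt1 and Nrp1 values was not tested.

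HEV-like cells carried less of each of the 5 receptors and co-receptors than capillary-like cells. Of 8 members tested, 7 passed, 1 higher and 6 lower, against 66% of 12144 genes (33.1% higher and 32.9% lower). Kdr stood at 219.5 to 283.2 CPM in HEV-like and at 1212 to 1621 in capillary-like cells, and Flt4 at 1.09 to 5.58 against 40.1 to 52.3. Neither pair of ranges overlapped. The log2 differences were -3.16 for Flt4 (SE 0.18), -2.14 for Kdr (SE 0.10), -2.03 for Nrp1 (SE 0.10) and -0.94 for Flt1 (SE 0.11), all with an edgeR adjusted p of 1.5e-06 or less. With free RNA subtracted Flt4 was at -3.85. Nrp2 differed by only -0.30 (edgeR adjusted p = 0.00734), which was lost after thinning (adjusted p = 0.132). Vegfb was higher in HEV-like cells by 1.31 (SE 0.21) and Vegfc lower by a log2 difference of -0.84 (SE 0.22), the latter not past the threshold among cells with Y-linked and no Xist UMIs (-0.78, SE 0.46, edgeR adjusted p = 0.163). Vegfa did not pass (0.34, adjusted p = 0.317), and Pgf, at 0 UMIs in HEV-like and 0 to 10 in capillary-like libraries, was not tested under the expression filter. It passed as lower in HEV-like cells with DESeq2 (adjusted p = 0.00970) and without the filter (edgeR adjusted p = 0.000141), and its fold is not given because HEV-like cells were at 0. HEV-like cells held 14149 to 81838 CPM of 7 HEV marker genes and capillary-like cells 61.7 to 287.

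Arterial-like cells differed from capillary-like cells most in Vegfc. Vegfc was higher by a log2 difference of 4.93 (SE 0.12, edgeR adjusted p = 1.1e-14), and 6 of 8 members passed, 2 higher and 4 lower, against 41.3% of 11281 genes (21.5% higher and 19.8% lower). Vegfa was higher by 1.82 (SE 0.21). Nrp2 was lower (-2.02, SE 0.10), as were Vegfb (-1.21, SE 0.25), Kdr (-1.07, SE 0.11) and Nrp1 (-0.61, SE 0.08). Flt1 differed by -0.04 (adjusted p = 0.750) and Flt4 by -0.15 (adjusted p = 0.407). The Flt1 levels were 1548 to 1860 CPM in arterial-like and 1479 to 1805 in capillary-like cells.

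Venous-like cells, of which a library held 23 to 67, shared the low Kdr of HEV-like cells and had high Nrp2. Of 7 members tested, 6 passed, 3 higher and 3 lower, against 33.8% of 9891 genes (17.7% higher and 16% lower). Kdr was lower than in capillary-like cells by a log2 difference of -2.33 (SE 0.16), Flt4 by -2.98 (SE 0.37) and Nrp1 by -1.57 (SE 0.16). Vegfc was higher by 2.73 (SE 0.24) and Nrp2 by 1.00 (SE 0.14, edgeR adjusted p = 1.1e-06). Vegfb was higher by 1.00 (edgeR adjusted p = 0.0337), but not past the threshold with DESeq2 (0.0848) or without the vehicle Cre-negative (0.0503), the day 3 Cre-positive (0.0557) or the day 7 Cre-negative library (log2 0.58, 0.295). Flt1 differed by -0.29 (edgeR adjusted p = 0.129) and passed without doublet removal (-0.36, adjusted p = 0.0299) and after thinning (-0.68, adjusted p = 0.00116).

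Mural-like cells were set against the reticular fibroblast-like cells of 5 CD31 libraries, 7 to 38 cells each. Of 7 members tested, 4 passed, 2 higher and 2 lower, against 21.9% of 4842 genes (10.3% higher and 11.6% lower). Vegfa was lower in mural-like cells by a log2 difference of -3.45 (SE 0.34, edgeR adjusted p = 4.2e-05), and Vegfc by -1.25 (SE 0.37, adjusted p = 0.0315), the latter not past the threshold without the vehicle Cre-negative (edgeR adjusted p = 0.0803), the vehicle Cre-positive (0.0717), the day 3 Cre-negative (0.175) or the day 7 Cre-positive library (0.0669), with DESeq2 (0.232), with free RNA subtracted (0.0610) or without an expression filter (0.0686). In these 7 alternatives the Vegfc difference ran from -1.31 to -0.96. Kdr was higher by 2.35 (adjusted p = 0.00932) and Flt1 by 2.77 (adjusted p = 0.00780). Without the day 3 library labelled Cre-positive they were 4.12 and 4.37. Neither passed without the library block (0.0545 and 0.0524), nor did Flt1 after thinning (1.48, 0.0814) or among cells with Y-linked and no Xist UMIs (0.167). Pan-endothelial markers moved with these 2 receptors: 7 to 8 of 8 genes were counted at 631 to 1989 CPM in mural-like cells and 4 to 8 genes at 85.9 to 1234 in reticular cells, and their part in the difference was not tested. Pgf (0.76, adjusted p = 0.329), Nrp1 (-0.59, 0.0798) and Nrp2 (-0.22, 0.685) did not pass. Nrp1 passed without the vehicle library labelled Cre-positive (-0.70, edgeR adjusted p = 0.0389).

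By treatment and Cre label, no member passed in capillary-like, HEV-like, lymphatic-like or reticular fibroblast-like cells. Each class was fitted over its 6 libraries with treatment and label as additive terms, which leaves 2 residual degrees of freedom, and day 3 and day 7 share the vehicle libraries. Where values of a treatment or label are said below to lie apart from the others, the share of all genes that do so was not counted. Such a separation is a description and can arise without any effect. In capillary-like cells, 0 of 8 members passed for the label (0.0723% of 11060 genes did), for day 3 (0.172%) or for day 7 (0.0362%). The capillary log2 differences of Kdr, Flt1, Flt4, Nrp1 and Nrp2 lay between -0.19 and 0.17 in all 3 contrasts. Kdr stood at 1264 and 1621 CPM in the vehicle libraries labelled Cre-negative and Cre-positive, at 1371 and 1445 at day 3 and at 1334 and 1212 at day 7. The highest and the lowest Kdr values were thus both in libraries labelled Cre-positive.

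In HEV-like cells, Flt1 was lowest at day 3. Flt1 stood at 795.0 and 881.6 CPM in the vehicle libraries labelled Cre-negative and Cre-positive, at 577.0 and 631.4 at day 3 and at 681.8 and 779.6 at day 7. Both day 3 values lay below the other 4. The log2 difference from vehicle was -0.48 (SE 0.14, unadjusted p = 0.00856, edgeR adjusted p = 0.0972), so it did not pass, and 0 of 8 members did, against 3.07% of 11579 genes at day 3. Among cells with Y-linked and no Xist UMIs the Flt1 difference was -0.22 (edgeR adjusted p = 0.707). With DESeq2 Flt1 passed (adjusted p = 0.0492), and without the vehicle library labelled Cre-negative so did Flt1 (-0.52, edgeR adjusted p = 0.0438), Nrp2 (-0.61, 0.0360) and Vegfa (-2.04, 0.0162). With all 6 libraries Nrp2 was at -0.32 (edgeR adjusted p = 0.321) and Vegfa at -1.0 (0.329). The fit without that library has 1 vehicle library, which is assumed to vary like the other groups. At day 7, 0 of 8 members passed (0% of genes, none by DESeq2 either, with 393 genes at an unadjusted p under 0.05 in edgeR and 92 in DESeq2).

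Nrp1 in HEV-like cells was higher with the Cre-positive label at every treatment. It stood at 208.9 and 295.7 CPM in the vehicle libraries labelled Cre-negative and Cre-positive, at 183.5 and 252.8 at day 3 and at 209.8 and 261.1 at day 7, so all 3 labelled Cre-positive lay above all 3 labelled Cre-negative. How many of all genes separate by label in this way was not counted. The log2 ratios within a treatment were 0.50 (95% counting interval 0.36 to 0.65), 0.46 and 0.32. The fitted label difference of 0.38 (SE 0.12, unadjusted p = 0.0130) had an edgeR adjusted p of 0.814 and did not pass, and it ran from 0.29 to 0.49 over 17 alternatives with adjusted p values of 0.340 or more. For the label, 0 of 8 members passed, against 0.0259% of genes. Vegfc (0.92, unadjusted p = 0.0212, edgeR adjusted p = 0.911) and Vegfb (-0.49, unadjusted p = 0.0199, edgeR adjusted p = 0.897) also did not pass. The share of HEV-like cells with Y-linked and no Xist UMIs differed between the libraries compared, at 52.0% and 83.7% for vehicle, 31.5% and 47.7% for day 3 and 35.9% and 27% for day 7.

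In lymphatic-like cells, Vegfc was low and stood highest at day 3. Its CPM were 5.62 and 5.10 in the vehicle libraries labelled Cre-negative and Cre-positive, 17.9 and 14.7 at day 3 and 4.54 and 8.6 at day 7. Both day 3 values lay above the other 4. The log2 difference from vehicle was 1.61 (SE 0.34, unadjusted p = 0.00132), with an edgeR adjusted p of 0.553. It was 1.65 in ceiling and 1.72 in floor lymphatic-like cells fitted alone, with edgeR adjusted p of 0.614 and 0.622, and the floor cells held most of it, with 40.2 and 37.4 CPM at day 3 against 14.1 and 9.65 for vehicle. Vegfc passed without an expression filter (edgeR adjusted p = 0.00539) and without the day 7 library labelled Cre-negative (0.000779) or Cre-positive (0.00125). In this class 0 of 9 members passed for the label, day 3 or day 7. There 0% of 13313 genes passed in edgeR, with 343, 690 and 90 genes at an unadjusted p under 0.05. With DESeq2 1, 10 and 1 genes passed.

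Nrp2 in lymphatic-like cells was higher with the Cre-positive label at every treatment. It stood at 151.7 and 232.3 CPM in the vehicle libraries labelled Cre-negative and Cre-positive, at 183.8 and 228.3 at day 3 and at 169.3 and 231.0 at day 7. The 2 labels did not overlap, and the share of all genes that separate in this way was not counted. The fitted difference was 0.50 (SE 0.18, unadjusted p = 0.0227) with an edgeR adjusted p of 1.00, so it did not pass. Kdr followed the same direction, with log2 ratios of 0.28, 0.36 and 0.20 for vehicle, day 3 and day 7 and a fitted difference of 0.32 (SE 0.21). Cortical and medullary cells, the lymphatic class with the most Nrp2 and Kdr, were a larger part of the libraries labelled Cre-positive: 127 of 732 lymphatic-like cells against 52 of 901 for vehicle, 90 of 496 against 61 of 502 at day 3 and 151 of 1023 against 137 of 1161 at day 7. Their part in these differences was not tested. Within ceiling cells alone the Nrp2 difference was 0.54 (SE 0.21) and within floor cells 0.34 (SE 0.22), neither past the threshold (edgeR adjusted p = 1.00 for both).

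**Figure D4:**
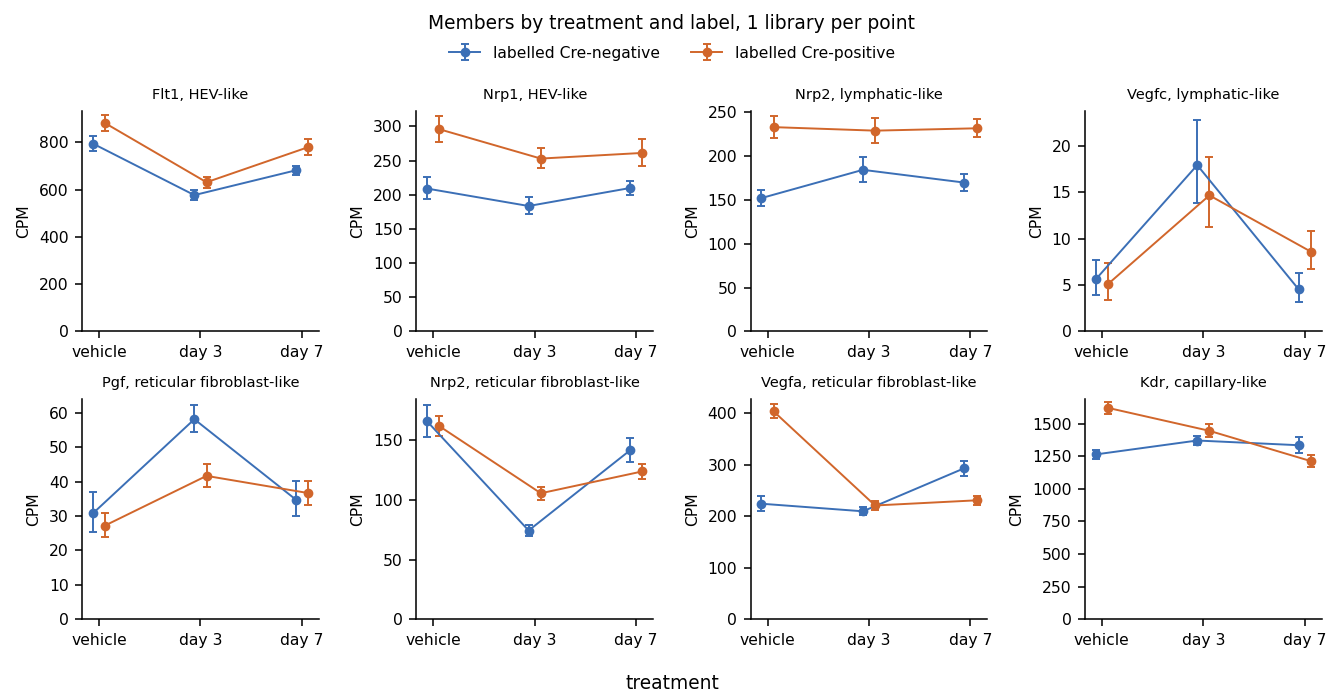
CPM of 8 member and class pairs at vehicle, day 3 and day 7; each point is 1 library, lines join libraries of the same Cre label and bars are exact 95% Poisson intervals, which cover counting error only. Nrp1 in HEV-like cells and Nrp2 in lymphatic-like cells are higher in the library labelled Cre-positive at each treatment, while Vegfa in reticular fibroblast-like cells is high in 1 library, vehicle labelled Cre-positive, at 404.0. The label differences of Nrp1 and Nrp2 in these classes did not pass the adjusted threshold.

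In reticular fibroblast-like cells of the CD45 libraries, Pgf was highest and Nrp2 lowest at day 3. Pgf stood at 30.7 and 27.2 CPM in the vehicle libraries labelled Cre-negative and Cre-positive, at 58.1 and 41.7 at day 3 and at 34.8 and 36.7 at day 7. Nrp2 stood at 165.9 and 161.9, 74.4 and 105.6, and 141.7 and 124.0 CPM in the same order. For both genes, the day 3 values lay outside the range of the other 4. The log2 differences from vehicle were 0.86 for Pgf (SE 0.20, edgeR adjusted p = 0.0701) and -0.79 for Nrp2 (SE 0.21, adjusted p = 0.0805), and 0 of 7 members passed, against 0.907% of 14558 genes. Both genes passed with DESeq2 (adjusted p = 0.0428 and 0.0318), without an expression filter (edgeR adjusted p = 0.00459 and 0.0193), after thinning (0.0213 and 0.0466), and without the day 7 library labelled Cre-negative (0.00968 and 0.0308) or Cre-positive (0.0157 and 0.0363).

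The makeup of this class differed at day 3, and neither difference passed within its 2 largest clusters. The Fabp7-led cluster held 42 of 614 and 88 of 976 reticular cells in the vehicle libraries, 907 of 1140 and 669 of 918 at day 3 and 95 of 883 and 82 of 1353 at day 7. Fitted alone, the Cyp2f2-led cells gave -0.03 for Pgf (SE 0.45, edgeR adjusted p = 0.999) and -0.42 for Nrp2 (SE 0.21, 0.725), and the Fabp7-led cells gave -0.79 for Pgf (SE 0.26, 0.215) and 0.07 for Nrp2 (SE 0.58, 0.973). The Pgf value in the Cyp2f2-led and the Nrp2 value in the Fabp7-led cells lay within their SE of 0, and only Pgf in the Fabp7-led cells was opposite to the class value by more than its SE. The Syt1-led cells were not fitted alone, and the part of the makeup in the class values was not tested. Within the Fabp7-led cluster, Pgf was 64.5 and 51.1 CPM at day 3 and 80.7 to 131.2 in the other 4 libraries. Clusters were drawn from these same cells, whose other genes also differed at day 3.

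**Figure D5:**
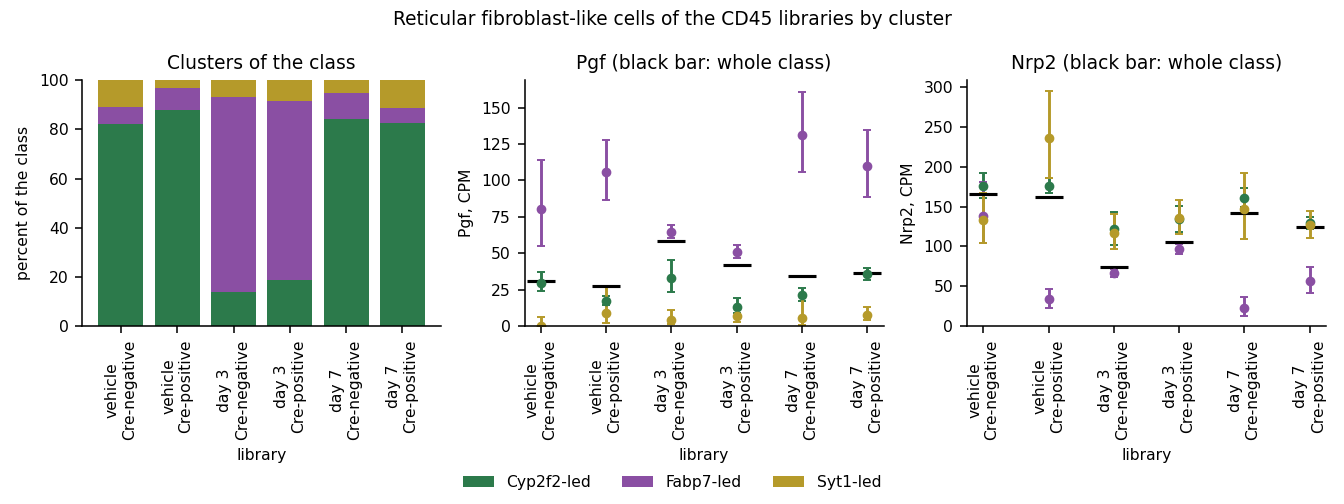
Left, percent of the reticular fibroblast-like cells of each CD45 library in 3 clusters; middle and right, CPM of Pgf and Nrp2 in each cluster with exact 95% Poisson intervals and, as a black bar, in the whole class. The Fabp7-led cluster is the largest in both day 3 libraries, and its Pgf (51.1 to 131.2) is above that of the Cyp2f2-led cluster (13.3 to 35.7) in all 6 libraries.

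Vegfa in reticular fibroblast-like cells stood at 224.5 and 404.0 CPM in the vehicle libraries labelled Cre-negative and Cre-positive, at 209.8 and 221.1 at day 3 and at 293.6 and 231.1 at day 7. The vehicle library labelled Cre-positive lay above the other 5, which ran from 209.8 to 293.6, and 76.8% of its reticular cells had Y-linked and no Xist UMIs against 18% to 58.6% in the others. The label difference for Vegfa was 0.14 (SE 0.26) and the day 3 difference -0.45 (SE 0.31), and neither passed. For the label and for day 7, 0 of 7 members passed, against 0% of genes in both, with 861 and 207 genes at an unadjusted p under 0.05 in edgeR and 2 and 0 genes called by DESeq2. Among the reticular fibroblast-like cells of the CD31 libraries, Flt1 passed at day 3 (3.58, edgeR adjusted p = 0.00276). It stood at 329.1 CPM in the day 3 library labelled Cre-positive, in 38 cells, where pan-endothelial markers reached up to 1234 CPM.

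The wider pathway was followed with 40 genes in 4 lists: other ligands and their processing (7 genes), co-receptors and modulators of the signal (10), genes induced by VEGF signalling (9) and oxygen sensing with the hypoxia response (14), which controls Vegfa in many tissues. In HEV-like against capillary-like cells, 7 of 14 hypoxia genes were higher and 6 lower, where 33.1% of all genes were higher and 32.9% lower, with a median log2 difference of 0.29 against -0.03 for all genes. Egln3, an oxygen sensor, was higher by 3.77 (SE 0.52), Ankrd37 by 3.65 (SE 0.24) and Slc2a1, a glucose transporter, by 3.25 (SE 0.16), each with an edgeR adjusted p of 1.3e-05 or less. Over the alternatives 5 to 7 hypoxia genes were called higher and 4 to 6 lower. Of the lower ones, Vhl (-0.40, edgeR adjusted p = 0.0436) kept its call in 6 of 14 alternatives and Bnip3 (-0.50, 0.0321) in 7 of 15. Of the co-receptors and modulators, 2 of 9 tested were higher and 5 lower, with a median of -1.0. The semaphorins split: Sema3a was higher by 3.41 (SE 0.33) and Sema3g lower by a log2 difference of -4.71 (SE 0.17). Of the induced genes, 3 of 8 were higher and 2 lower, and of the other ligands 2 of 5 each way.

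In arterial-like against capillary-like cells, 21.5% of all genes were higher and 19.8% lower. Of 5 other ligands and processing genes tested, 4 were higher and 0 lower, with a median of 2.28: Sema3g by 2.56 (SE 0.09), Vegfd, the other ligand of Flt4, by 2.29 (SE 0.51, edgeR adjusted p = 0.0014) and Sema3c by 2.28 (SE 0.22). Of 9 co-receptors and modulators 5 were higher and 0 lower, of 8 induced genes 5 were higher and 1 lower, and of 13 hypoxia genes 4 went each way, with Ankrd37 higher by 2.22 and Adm, the vasodilator adrenomedullin, lower by a log2 difference of -4.10. The hypoxia counts ran from 2 to 4 higher and 2 to 5 lower over the alternatives: Slc2a1 (0.54, edgeR adjusted p = 0.0366) kept its call as higher in 7 of 13 and Arnt (-0.29, 0.0394) as lower in 7 of 15. In venous-like cells, of 4, 8, 8 and 12 genes tested in the 4 lists, 2, 3, 2 and 3 were higher and 1, 3, 1 and 3 lower, where 17.7% of all genes were higher and 16% lower. The netrin receptor Unc5b (-6.48, SE 0.54), Sema3g (-5.17), the Notch ligand Dll4 (-4.28) and Adm (-3.96) were lower there and Vegfd higher by 3.01 (SE 0.77, edgeR adjusted p = 0.0024). The venous hypoxia counts ran from 1 to 4 higher and 1 to 3 lower over the alternatives, and Ptprb (0.37, edgeR adjusted p = 0.0387) kept its call in 9 of 15.

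In lymphatic-like against blood endothelial-like cells, 5 of 14 hypoxia genes were higher and 9 lower, where 28.9% of all genes were higher and 30.9% lower. Their median was -0.35, and Epas1, the endothelial hypoxia-inducible factor, was lower by a log2 difference of -3.05 (SE 0.09). Over the alternatives 3 to 5 hypoxia genes were called higher and 7 to 9 lower. Of the 14 calls, 9 were kept in every alternative that tested the gene. Of the induced genes 3 of 8 were higher and 4 lower, among them the transcription factor Hlx (-3.49) and the feedback inhibitor Spry4 (-3.24). Sema3a was higher by 5.61 (SE 0.46) and Sema3g lower by a log2 difference of -5.91, within a list where 3 of 7 went each way. That list gave 1 to 3 higher and 3 lower over the alternatives. Of 10 co-receptors and modulators, 4 were higher and 3 lower. In mural-like against reticular cells, where only 1, 5, 5 and 7 genes of the lists were tested, 0, 3, 1 and 1 were higher and 1, 0, 1 and 1 lower, where 10.3% of all genes were higher and 11.6% lower. Tissue factor F3 (-6.71), Ccbe1, which helps activate Vegfc (-6.13), and Ndrg1 (-1.55) were lower, and Ptprb (2.26) and the ephrin Efnb2 (1.85) higher. Ptprb and Efnb2 are also endothelial genes. Pan-endothelial markers stood at 631 to 1989 CPM in these mural-like and at 85.9 to 1234 in the reticular cells, and their part in the higher calls was not tested. Ccbe1 did not pass without the vehicle library labelled Cre-negative (edgeR adjusted p = 0.0573), and Efnb2 kept its call in only 6 of 12 alternatives. Of the 8 pathway calls in this pair, 2 passed in every alternative that tested the gene.

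By treatment or label, 6 pathway calls were made, all at day 3, where 3.07% of all genes passed in HEV-like and 0.907% in reticular fibroblast-like cells. In HEV-like cells 2 of 8 induced genes fell, the immediate-early transcription factors Egr3 (-2.11, SE 0.42, edgeR adjusted p = 0.0424) and Nr4a1 (-1.90, SE 0.29, 0.0273), and 1 of 14 hypoxia genes, the glycolytic enzyme gene Pgk1, rose (0.72, SE 0.13, 0.0404). In reticular fibroblast-like cells 2 of 14 hypoxia genes rose, Ldha (1.32, SE 0.21, edgeR adjusted p = 0.0488) and Pgk1 (1.11, SE 0.18, 0.0488), and Adm fell (-1.09, SE 0.15, 0.0396). None of the 6 passed when either day 3 library was left out, which leaves 1 library at day 3. Egr3 and Pgk1 in HEV-like cells also did not pass without the vehicle library labelled Cre-positive, nor the 3 reticular genes without the one labelled Cre-negative. With no doublets removed, Egr3 and Pgk1 in HEV-like and Ldha and Pgk1 in reticular cells did not pass. Among cells with Y-linked and no Xist UMIs, Pgk1 in both classes and Ldha did not pass, nor did Pgk1 in HEV-like cells after thinning. Among the reticular cells of the CD31 libraries, Ldha and Pgk1 did not pass. Over all alternatives run, the highest edgeR adjusted p was 0.391 for Egr3, 0.372 for Nr4a1 and 0.480 for Pgk1 in HEV-like cells, and 0.757 for Ldha, 0.941 for Pgk1 and 0.995 for Adm in reticular cells, where Pgk1 reached -0.36 and Adm 0.01 under 1 setting each. In the Cyp2f2-led and Fabp7-led cells fitted alone, none of the 3 reticular calls passed.

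As a description, the genes with the most similar pattern were sought over 46 classes of both fractions among 12251 genes, by Pearson r of log2(CPM + 1). The classes of a fraction share libraries, so these values carry no test. For Kdr they were the endothelial genes Cdh5 (r = 0.98), Tie1 (0.95) and Ushbp1 (0.95), for Flt1 Palmd, Esam and Samd12 (0.97 each), for Nrp1 Tmem47 (0.88), Ankrd29 (0.87) and Lpar4 (0.86), for Nrp2 Dock1 (0.93), Sbf2 and Tmcc2 (0.92 each) and for Flt4 Fzd6, Rassf9 (0.90 each) and Gm9917 (0.89). Among the ligands they were Pknox2, Ctsk and Cpxm1 for Vegfa (0.87 each), Plod2, Map7d3 (0.77 each) and Tsga10 (0.76) for Vegfc, and the contractile gene Myl9 with Pde3a and Pde1a for Pgf (0.85 each). Vegfb was left out of this search.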

How the data were processed

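Single-cell 3′ RNA libraries were made with 10x Genomics V2 chemistry, per the labels' protocols, and processed with Cell Ranger 7.0.1 on build mm10, per the submitters' processing notes. The authors deposited raw UMI counts per gene and barcode for all barcodes of 12 libraries. The 9 members and the pathway and marker lists were chosen with earlier results of these data known.

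Barcodes with at least 1000 UMIs, at least 500 genes and no more than 10% of UMIs from mitochondria were kept, and 4.78% to 9.31% of them were removed per library by their Scrublet doublet score (0.8% per 1000 barcodes). Cells of each fraction were clustered with scanpy 1.11.5 (2000 variable genes, 30 principal components, 20 neighbours, Leiden resolution 1.5) without the members, the pathway genes, Atg12, genes of antigen receptors, haemoglobin, ribosomes and mitochondria, and genes linked to sex. Clusters were named from marker lists. A total of 5 clusters of the CD31 and 3 of the CD45 libraries stayed unnamed. Among them was a cluster of low UMI counts led by genes such as Pcp4, Krt18, Krt8 and Wfdc2, with 2181 cells in the day 3 library labelled Cre-positive. UMI counts were summed per class and library and tested with edgeR 4.0.16 (R 4.3.3), with TMM scaling, filterByExpr and the quasi-likelihood F test, and Benjamini-Hochberg adjustment over all genes tested at a threshold of 0.05. The SE of an edgeR difference was derived from the test, as the absolute log2 difference divided by the square root of F. DESeq2 1.42.0 was an alternative, beside settings for filtering, depth, doublets, free RNA, sex-linked UMIs and single libraries. The fits by treatment and label of reticular cells used the CD45 libraries, where most of these cells were, in place of the CD31 libraries first planned. On simulated sums, the label test in capillary-like cells (10894 genes) recovered 88% of 2-fold and 100% of 4-fold changes with 12 false calls, and the HEV-like against capillary-like test (11716 genes) 87% and 100% with 4. These sums gave all genes the same fixed dispersion, and the changed genes were drawn only from those above a minimum mean count. The recovery is thus that of the simulation and can be lower in the real fits, above all for genes with few UMIs.

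Named were all 9 members, the pathway genes called by treatment or label, the 5 called pathway genes with the largest change in each pair, and the 3 genes most like each member but Vegfb in pattern. Some called pathway genes outside these 5 were also named because they lost their call in several alternatives. Intervals are exact and at the 95% level, and with the limit set by 3 counts they cover counting error only.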

Additional observations from a re-analysis of the deposited data

Results flagged for a closer look

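For 11 of the 31 pairs of a member and a class with a ratio at all 3 treatments, the library labelled Cre-positive was above the one labelled Cre-negative at one treatment and below it at another, with the 95% counting intervals of the ratios apart from 0. By the same rule this held for 13.5% of the 50132 pairs of any gene and one of these 4 classes and for 35.5% of the member pairs, which were not matched on UMI counts. The intervals cover counting error only. Over all classes, 315 of 783 single ratios of the members had an interval apart from 0. These differences between treatments were not tested, since each ratio rests on 2 libraries.

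In capillary-like cells the log2 ratio of Kdr was 0.359 for vehicle, 0.0763 at day 3 and -0.14 at day 7, and that of Nrp2 was 0.37, -0.15 and -0.26. There Flt1 went from 0.27 for vehicle to -0.10 at day 7 and Nrp1 from 0.28 to -0.12. In HEV-like cells Vegfa had ratios of 1.41 for vehicle and -1.01 at day 7, and Nrp2 of 0.38 and -0.18. In lymphatic-like cells Vegfa stood at 0.77 for vehicle, -0.37 at day 3 and -0.46 at day 7. The share of floor cells, the lymphatic class with the most Vegfa, differed between these libraries in the same directions. For vehicle they were 281 of 732 lymphatic-like cells with the Cre-positive label against 207 of 901 with the Cre-negative label. The numbers were 132 of 496 against 153 of 502 at day 3 and 218 of 1023 against 497 of 1161 at day 7. The part of this in the ratios was not tested.

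In reticular fibroblast-like cells the ratios for vehicle, day 3 and day 7 were 0.85, 0.0757 and -0.35 for Vegfa, 0.38, 0.49 and -0.42 for Vegfc and -0.27, 0.12 and 0.0850 for Nrp1. Nrp2 had 0.51 at day 3 and -0.19 at day 7. All pairs of a class rest on the same libraries, so they are not separate observations. The vehicle library labelled Cre-positive had the highest share of cells with Y-linked and no Xist UMIs in each of these classes. The part of this in the ratios was not tested.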

How the results depend on the processing

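Of 30 calls of a member in one of the 5 class pairs, 24 were kept in every alternative that tested the gene (13 to 15 each). So were 86 of 112 calls of pathway genes, where all 112 were tested in 7 to 15 alternatives each. No result turned direction past the threshold. The fits by treatment and label compare the labels within each treatment, and no pairing by replicate number was made because the labels give none. The class pairs had the library as a block; without the replicate block the mural-like against reticular pair gave 2 calls in place of 4, with Kdr at 1.82 (edgeR adjusted p = 0.0545) and Flt1 at 2.04 (0.0524). That pair gave 0 calls of 2 tested after thinning, 1 of 3 among cells with Y-linked and no Xist UMIs and 3 to 4 when a library was left out. Leaving out a library gave 7 to 8 calls for lymphatic-like against blood endothelial-like cells, 7 to 7 for HEV-like, 6 to 6 for arterial-like and 5 to 6 for venous-like against capillary-like cells.

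At day 3, HEV-like cells gave 1 call with DESeq2 and 0 to 3 without a library, lymphatic-like cells 1 without an expression filter and 0 to 1 without a library, and reticular cells 2 with DESeq2, 2 without a filter, 2 after thinning, 1 in cells of the CD31 libraries and 0 to 2 without a library. The other fits by treatment and label gave 0 to 0. Settings by cluster and by CD31 library were chosen after seeing the data. Over the genes tested by both tools, DESeq2 log2 differences lay above those of edgeR by a median of 0.06 in the mural-like pair, 0.03 in the HEV-like pair and 0.0077 or less in the other 3. Each group is 1 library, and the fits by treatment and label have 2 residual degrees of freedom.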
